A study of Mus musculus with 2 samples.

Results

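The RNAs described here are 10 long noncoding RNAs of the mouse, chosen by name among the 34745 genes in the deposited RNA-seq tables. Malat1, Neat1 and Kcnq1ot1 are nuclear RNAs, and Gas5, Snhg1, Snhg3, Snhg5, Snhg6, Snhg8 and Snhg12 are host genes of small nucleolar RNAs (snoRNAs). The rule uses names and no measured value, but the RNAs were chosen with earlier results of these data known. Between BM LSKs before and after BA induction, Kcnq1ot1 rose to 2.17 times its level, and Malat1 and Neat1 were lower at week-3. No snoRNA host with enough reads moved by 2 times in either direction, and neither did 73.8% of all genes with enough reads.

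Malat1 is a very abundant nuclear transcript that lies in nuclear speckles, where splicing factors are stored, and Neat1 is the scaffold of paraspeckles, nuclear bodies built on this RNA. Kcnq1ot1 is transcribed from the paternal allele, antisense to Kcnq1, and silences neighbouring imprinted genes in cis. The snoRNA host genes carry snoRNAs in their introns. After splicing, the introns give snoRNAs, which guide the modification of ribosomal RNA, while many of the joined exons are removed by nonsense-mediated decay on the ribosome.

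Scl/tTA-BA mice on the C57BL/6 background carry an Scl-driven tTA and a TRE-controlled BCR/ABL1 (BA), so that BA is expressed in hematopoietic stem and progenitor cells when doxycycline is removed. Bone marrow LSKs (lineage-negative, Sca1-positive and c-Kit-positive cells) were sorted from mice kept on doxycycline (week-0) and from mice at week-3 after its withdrawal. Both groups carried the transgenes. Each time point gave 1 library from the LSKs of 3 mice mixed together, so the spread between mice is unknown and no test across conditions could be made.

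On genes, 6356164 reads were counted for week-0 and 3886695 for week-3, while the floor used for a gene at 0 (3 reads) corresponds to 0.472 and 0.772 reads per 1000000. Ratios below are the log2 of FPKM at week-3 over FPKM at week-0 (fragments per kilobase of a gene's exons and per 1000000 reads), with exact Clopper-Pearson 95% intervals from the reads. The cDNA was amplified and reads are therefore not separate molecules, so the intervals describe counting error and nothing else. A gene was called when it had at least 20 reads over both libraries and a ratio of at least 2 or at most 0.5. By this rule, 10.6% of the 12192 genes with at least 20 reads were called higher at week-3 and 15.6% lower. All 11 LSK marker genes on the list used here were read in both libraries, among them Kit (1391 and 580 reads) and Ly6a, which encodes Sca1 (434 and 199 reads), and of these 11 genes 1 was called higher and 4 lower at week-3. Marker genes of other blood cells differed between the libraries: all 10 mast cell markers and 9 of 11 neutrophil and monocyte markers were called higher at week-3, and all 10 erythroid markers and 5 of 6 B and plasma cell markers with enough reads were called lower. The mast cell list went from 0.0196% to 0.419% of reads (Tpsb2 and Mcpt4 at 0 at week-0), the neutrophil and monocyte list from 0.373% to 1.67%, the erythroid list from 0.220% to 0.0365% and the B and plasma cell list from 0.884% to 0.0709%. Of 6 megakaryocyte markers 1 was called lower, as was 1 of 2 T and NK cell markers with enough reads, and mitochondrially encoded genes went from 1.24% to 2.16% of reads. In bulk RNA of this kind, fewer cells of a type and less RNA per cell cannot be told apart.

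The snoRNAs that define the host genes are shown first. GENCODE M21 places 29 snoRNA entries inside the 7 hosts on the host's own strand, 10 in Gas5, 8 in Snhg1, 5 in Snhg12, 2 each in Snhg3 and Snhg5, and 1 each in Snhg6 and Snhg8. Snord80 and Snora16a are each annotated under 2 identifiers. Box C/D snoRNAs guide the methylation of ribosomal RNA and carry a C box near the 5′ end and a D box near the 3′ end, while box H/ACA snoRNAs guide pseudouridylation and end with ACA close to the 3′ end. The letters TGATGA within the first 25 bases together with CTGA within the last 20 were found in 18 entries, and ACA within the last 6 bases of entries longer than 100 bases in 6, searched on the snoRNA strand only. Among the 1478 other annotated mouse snoRNA entries these shares were 19.8% and 43.1%. In the sequences below, 1 or 2 for each host, capitals mark the C and D box letters or the ACA.

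Gas5, Snord47, chr1:161038082-161038158, plus strand: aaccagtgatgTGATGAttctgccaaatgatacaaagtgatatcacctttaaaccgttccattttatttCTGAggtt
Snhg1, Gm22744, chr19:8725092-8725156, plus strand: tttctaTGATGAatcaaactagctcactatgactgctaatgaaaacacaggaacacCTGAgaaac
Snhg3, Snora73a, chr4:132352775-132352979, minus strand: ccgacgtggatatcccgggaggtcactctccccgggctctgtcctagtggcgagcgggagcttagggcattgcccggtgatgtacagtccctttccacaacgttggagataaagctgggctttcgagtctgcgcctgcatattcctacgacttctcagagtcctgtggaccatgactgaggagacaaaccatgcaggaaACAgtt
Snhg5, Snord50a, chr9:88521529-88521600, minus strand: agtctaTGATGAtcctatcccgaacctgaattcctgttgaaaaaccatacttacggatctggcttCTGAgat
Snhg5, Snord50b, chr9:88521797-88521868, minus strand: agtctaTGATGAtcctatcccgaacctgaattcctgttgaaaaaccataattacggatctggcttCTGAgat
Snhg6, Snord87, chr1:9942463-9942549, minus strand: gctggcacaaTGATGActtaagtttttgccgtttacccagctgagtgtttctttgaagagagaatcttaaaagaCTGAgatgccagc
Snhg8, Snora24, chr3:123507937-123508066, minus strand: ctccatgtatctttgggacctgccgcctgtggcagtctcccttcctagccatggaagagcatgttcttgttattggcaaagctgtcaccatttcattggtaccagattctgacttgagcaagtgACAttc
Snhg12, Snora61, chr4:132310240-132310369, plus strand: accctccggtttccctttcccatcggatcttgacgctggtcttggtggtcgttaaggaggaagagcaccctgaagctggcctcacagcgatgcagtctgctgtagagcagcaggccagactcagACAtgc
Snhg12, Snord99, chr4:132310691-132310764, plus strand: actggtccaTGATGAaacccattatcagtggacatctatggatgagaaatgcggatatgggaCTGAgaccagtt

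Snord50a and Snord50b differ at 1 of 72 bases, and the Snora73a and Snora73b copies inside Snhg3 at 7 of 205. None of the 29 entries has a row of its own in the deposited tables, so no value here measures a snoRNA by itself. The loci are seen only through the hosts and through genes that overlap them, such as Rcc1 and Gm17300 at Snhg3. Where a host transcript retains an intron, reads over a snoRNA were available to the host.

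The starts of the hosts are shown because snoRNA hosts are known as 5′ terminal oligopyrimidine (5′ TOP) genes, whose RNAs begin with a run of C and T, as those of ribosomal proteins do. Each window runs 5′ to 3′ from 30 bases before the RefSeq start (GRCm38.p6), and capitals mark the longest run of C or T with a base within 5 bases of the start, searched on the gene's strand. Of the 10 RNAs, 8 had a RefSeq entry, and Neat1 and Snhg6 had none in the table used.

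Gas5, second start, chr1:161035136-161035195, plus strand: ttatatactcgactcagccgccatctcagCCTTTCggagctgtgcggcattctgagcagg
Snhg1, chr19:8723457-8723516, plus strand: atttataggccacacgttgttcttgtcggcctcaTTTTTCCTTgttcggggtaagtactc
Snhg3, chr4:132353657-132353716, minus strand: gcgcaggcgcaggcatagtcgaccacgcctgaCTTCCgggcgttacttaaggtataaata
Snhg5, chr9:88522868-88522927, minus strand: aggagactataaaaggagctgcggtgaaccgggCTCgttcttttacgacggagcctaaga
Snhg8, chr3:123508307-123508366, minus strand: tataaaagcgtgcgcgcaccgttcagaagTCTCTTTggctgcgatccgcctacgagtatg
Snhg12, chr4:132308648-132308707, plus strand: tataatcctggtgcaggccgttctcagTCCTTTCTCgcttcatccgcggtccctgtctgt
Malat1, chr19:5802643-5802702, minus strand: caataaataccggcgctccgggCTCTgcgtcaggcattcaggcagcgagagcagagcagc
Kcnq1ot1, chr7:143296518-143296577, minus strand: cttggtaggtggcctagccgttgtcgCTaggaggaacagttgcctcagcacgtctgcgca

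A run of at least 5 was found at 5 of the 7 annotated starts of host genes, with runs of 9 at Snhg1 and Snhg12, 7 at Snhg8, 6 at the second start of Gas5 and 5 at Snhg3. The run was 3 at the first start of Gas5, whose window is not shown, and 3 at Snhg5. It was 4 at Malat1 and 2 at Kcnq1ot1. Such a run was found in 32.9% of 32851 RefSeq promoters and in 49.3% of 75 promoters of cytosolic ribosomal protein genes. A run is a description of letters, and the starts used in these cells were not measured.

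Of the 10 RNAs, 9 had at least 20 reads and Snhg3 had none. Among these 9, 1 was called higher at week-3 (Kcnq1ot1) and 0 were called lower, where 10.6% of the 12192 genes with at least 20 reads were called higher and 15.6% lower. The median log2 ratio of the 9 RNAs was −0.31, and 6 of them lay below the median of all genes, 0.07. Together the members took 0.367% of all reads on genes at week-0 and 0.285% at week-3. Of the 826 genes of long noncoding biotypes with enough reads, 17.1% were called higher and 23.7% lower.

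**Figure D1:**
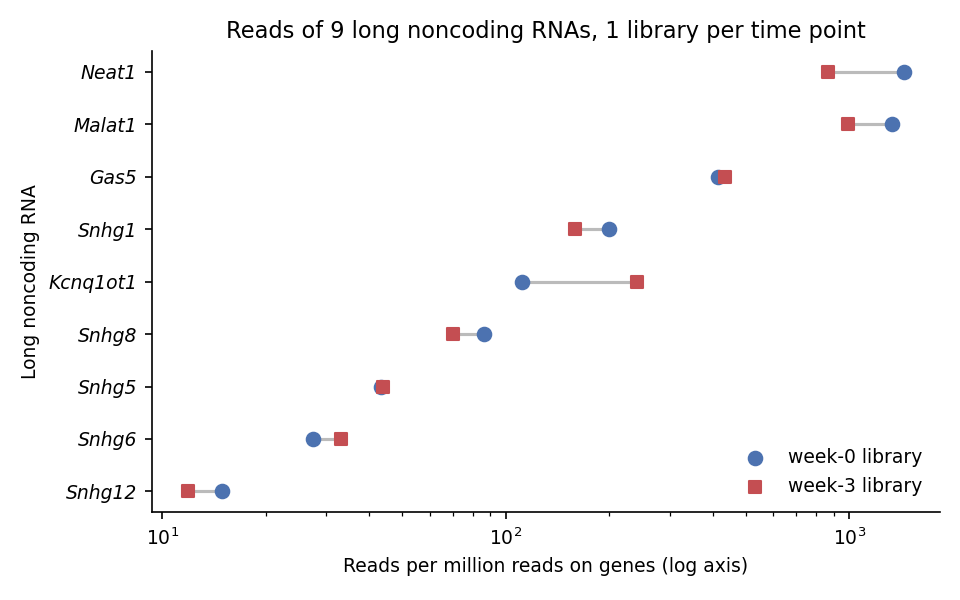
Reads per 1000000 reads on genes (x axis, log scale) of the 9 long noncoding RNAs with reads, 1 point per library (circles, week-0; squares, week-3; n = 1 library of 3 mixed mice each). Kcnq1ot1 moves from 111 to 241 reads per 1000000, Neat1 from 1442 to 868, and Gas5 and Snhg5 have nearly superposed points.

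Malat1 (ENSMUSG00000092341, chr19:5795690-5802672, minus strand, a lincRNA with 4 annotated transcripts of at most 2 exons) had 8485 reads at week-0 against 3845 at week-3. Its FPKM was 143 at week-0 and 106 at week-3. The log2 ratio was −0.43 (95% interval −0.49 to −0.38), so Malat1 was lower at week-3 by more than counting error but within the 2-fold limits, and 29.1% of the genes with enough reads had a lower ratio.

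Neat1 (ENSMUSG00000092274, chr19:5824708-5845478, minus strand, a lincRNA) lies 22036 bases from Malat1. It had 9163 reads at week-0 (FPKM 58.1) against 3374 at week-3 (FPKM 35.0). The log2 ratio of −0.73 (95% interval −0.79 to −0.67) was the lowest of the 9 RNAs. It differed from that of Malat1 by 0.30 on the log2 scale (interval of the difference 0.22 to 0.38). The order of the pair in reads, which is not corrected for length, turned, with 0.926 Malat1 reads per Neat1 read at week-0 and 1.14 at week-3. Among long noncoding RNAs ranked by reads, Neat1 was the third and Malat1 the fourth at week-0, and they had changed places at week-3.

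The coding gene Frmd8, 4224 bases from Neat1, had 513 and 340 reads and a log2 ratio of 0.12 (interval −0.09 to 0.32). This interval contains 0 and lies above those of Malat1 and Neat1.

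The 3′ end of Malat1 is shown because cDNA was made with an oligo(dT)-primed kit and this RNA has no added poly(A) tail. RNase P cuts the precursor before a tRNA-like small RNA, mascRNA, and leaves an end that is protected by a triple helix of U-rich and A-rich stretches. Below, the last 100 bases before mascRNA (chr19:5795982-5796081, minus strand) carry runs of at least 4 A or 4 T in capitals, and mascRNA (chr19:5795924-5795981) follows in lower case.

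Malat1 3′ end: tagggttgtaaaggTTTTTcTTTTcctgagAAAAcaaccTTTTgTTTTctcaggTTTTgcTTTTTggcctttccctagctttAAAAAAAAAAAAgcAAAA
mascRNA: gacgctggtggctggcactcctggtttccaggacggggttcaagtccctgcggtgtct

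The longest run of A before the cut is 12, and 80% of the last 20 bases are A. Runs of at least 8 A in the longest annotated transcript numbered 1 in Malat1, 0 in Neat1, 30 in Kcnq1ot1 (longest 41), 1 in Snhg12 and 0 in the 6 other hosts. An oligo(dT) primer can anneal to such runs, and their part in the reads was not tested.

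Genes of the 2 nuclear bodies and of the cutting enzymes were followed as lists, beside 10.6% called higher and 15.6% called lower over all genes with enough reads. Of 29 nuclear speckle proteins with enough reads, 1 was called higher (Clk2, a kinase of SR splicing factors, with 85 and 109 reads and a log2 ratio of 1.07) and 1 lower (Srsf4, an SR splicing factor, with 165 and 49 reads and −1.04). Their median log2 ratio was 0.15, against 0.07 for all genes. Of 25 paraspeckle proteins, 2 were called higher and 0 lower, with a median of 0.25. These were Fam98a (59 and 93 reads, log2 ratio 1.37) and Tardbp, which encodes the RNA-binding protein TDP-43 (464 and 580 reads, 1.03). Of 10 subunits of RNase P and RNase Z enzymes, 4 were called higher and 0 lower, with a median of 0.79. The 4 were Rpp38 (18 and 40 reads, log2 ratio 1.86), Rpp40 (90 and 119 reads, 1.11), Rpp14 (171 and 219 reads, 1.07) and Pop1 (79 and 99 reads, 1.04), all of them RNase P subunits. The medians of the speckle, paraspeckle and RNase lists lay 0.08, 0.18 and 0.72 above that of all genes, while Malat1 and Neat1 lay below it. Genes of the 2 nuclear bodies went both ways, however. Log2 ratios ran from −1.04 to 1.07 for speckle proteins and from −0.85 to 1.37 for paraspeckle proteins. Malat1 and Neat1 lay within both ranges, so these medians do not show that the RNAs and the proteins of their bodies moved in opposite directions.

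Immediate-early genes, which respond within minutes to stimulation and to cell handling, differed between the libraries on the same side as Malat1 and Neat1. Of 19 such genes, 17 were called lower at week-3, against 15.6% of all genes with enough reads. The whole list took 4.62% of reads at week-0 but 1.29% at week-3. Egr1, an early transcription factor, had 41528 reads at week-0 against 2859 at week-3 (log2 ratio −3.15). Their part in the values of Malat1 and Neat1, and that of the marker genes of other cells, was not tested.

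Kcnq1ot1 (ENSMUSG00000101609, chr7:143212155-143296549, minus strand, annotated as antisense) had 707 reads at week-0 against 936 at week-3, although the week-3 library was smaller. Its FPKM was 1.32 at week-0 and 2.85 at week-3. The log2 ratio was 1.11 (95% interval 0.97 to 1.26), a ratio of 2.17 (1.96 to 2.39), so the lower bound falls just under the 2-fold limit. It was higher than 91.5% of the genes with enough reads, and the RNA went from the twentieth to the twelfth place among long noncoding RNAs by reads. The call is close to the limit, since the log2 ratio was 1.002 with TMM scaling and 0.73 on the log2(FPKM + 1) scale.

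The difference between Kcnq1ot1 and the other nuclear RNAs was larger than counting error. Its log2 ratio exceeded that of Malat1 by 1.55 (interval 1.39 to 1.70) and that of Neat1 by 1.85 (1.69 to 2.0). It also exceeded that of each of the 6 hosts with reads, with differences from 0.84 to 1.45 whose intervals all lie above 0. Per kilobase, Kcnq1ot1 nevertheless had the lowest level of the 9 RNAs in both libraries.

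Kcnq1ot1 lies inside Kcnq1, a potassium channel gene on the opposite strand, which was listed at 0 reads in both libraries. In GENCODE M21 the transcript runs further, to chr7:143203458-143296549, as 1 unspliced exon. Of the bases of that exon, 0.130% are shared with exons of other genes in the tables.

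The other genes of the Kcnq1 imprinted domain and its surroundings were given as a list of 17. Of the 10 with enough reads, 0 were called higher and 3 lower, and the median log2 ratio was −0.08. The shares over all genes with enough reads were 10.6% higher and 15.6% lower. Slc22a18, a membrane transporter, had 109 reads at week-0 against 22 at week-3 (log2 ratio −1.60, interval −2.33 to −0.93). Phlda2, a gene known for limiting growth of the placenta, had 40 and 11 reads (−1.15, interval −2.26 to −0.16). Cdkn1c, which encodes a cyclin-dependent kinase inhibitor linked to quiescence of stem cells, had 19 and 3 reads (−1.95, interval −4.35 to −0.19).

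Other members of the list were higher within the limits, with intervals above 0. Osbpl5, a lipid transfer protein gene, had 41 and 50 reads (0.996, interval 0.37 to 1.63), Dhcr7, an enzyme of cholesterol synthesis, 192 and 160 (0.45, interval 0.13 to 0.76), and Nap1l4, a histone chaperone, 897 and 677 (0.30, interval 0.16 to 0.45).

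Slc22a18, Phlda2 and Cdkn1c belong to the maternally expressed genes that Kcnq1ot1 is known to silence on the paternal allele. The list was not divided into genes silenced by Kcnq1ot1 and other genes. Members that were higher at week-3, such as Osbpl5 and Nap1l4, were not sorted either, nor were Tssc4 and Cd81. Slc22a18, Phlda2 and Cdkn1c therefore do not stand for the targets of Kcnq1ot1 as a set. The list as a whole did not move one way. Reads of the 3 genes were few, the intervals of Phlda2 and Cdkn1c reach close to 0, and counts per gene do not tell the alleles apart. The flanking Tssc4, 141062 bases away, had 690 and 459 reads and a log2 ratio of 0.12 (interval −0.05 to 0.29), which contains 0. Cd81, a tetraspanin of the same region, had 2710 and 890 reads (−0.90) and was within the limits. H19, Th and Ins2 were listed at 0 in both libraries. Whether the reads of Kcnq1ot1 and of its neighbours moved in the same cells was not tested.

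**Figure D2:**
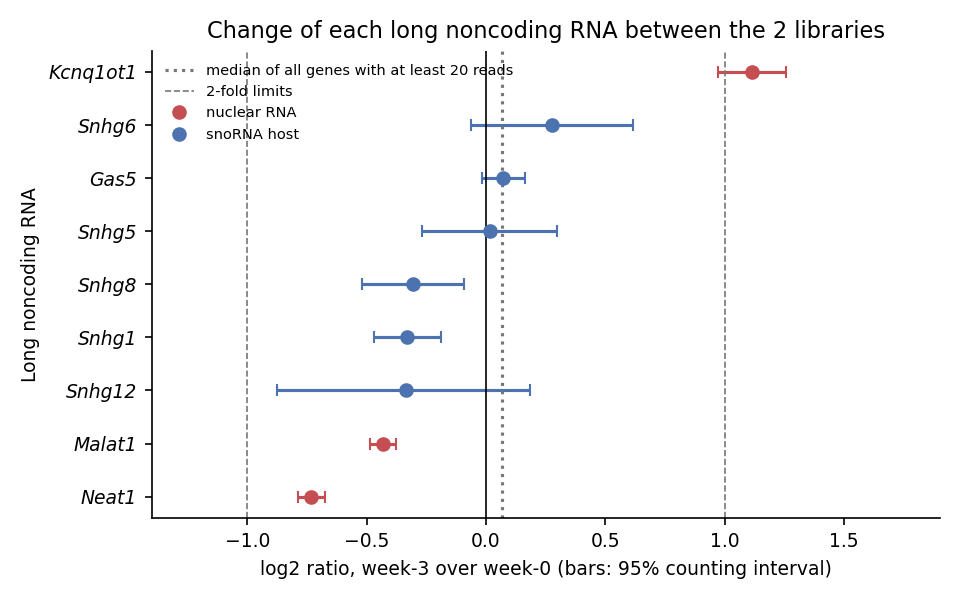
The log2 ratio of FPKM at week-3 over week-0 (x axis) of each long noncoding RNA, with its exact 95% counting interval as a bar (red, nuclear RNAs; blue, snoRNA hosts); dashed lines mark the 2-fold limits and the dotted line the median of all genes with at least 20 reads. Kcnq1ot1 lies at 1.11, the hosts lie between −0.34 and 0.28, and Neat1 lies at −0.73.

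Of the 7 snoRNA hosts, 6 had enough reads and 0 were called in either direction. Of all genes with enough reads, 73.8% were within the limits as well. The log2 ratios of the 6 hosts ran from −0.34 to 0.28 with a median of −0.15. Their reads added up to 4986 at week-0 and 2922 at week-3, a log2 ratio of −0.06 (95% interval −0.13 to 0.005), which contains 0. This depends on the scaling, since the sum was at −0.17 (interval −0.24 to −0.11) under TMM, below 0 beyond counting error.

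Gas5 (ENSMUSG00000053332, chr1:161034422-161038539, plus strand, 25 annotated transcripts of up to 12 exons), named for its accumulation in growth-arrested cells, had the most reads of the hosts. It had 2626 reads at week-0 (FPKM 35.4) against 1689 at week-3 (FPKM 37.2). The log2 ratio was 0.07 (interval −0.02 to 0.16). This interval contains 0, and the value turned to −0.039 under TMM and −0.016 under median-of-ratios scaling, so no direction can be given. Gas5 made up 52.7% of the host reads at week-0 (exact 95% interval 51.3 to 54.1) and 57.8% at week-3 (56.0 to 59.6). Zbtb37, which overlaps the span of Gas5 on the opposite strand without sharing exonic bases, had 27 and 8 reads.

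Snhg1 (ENSMUSG00000108414, chr19:8723475-8726443, plus strand, 18 transcripts) had 1266 reads at week-0 (FPKM 17.9) against 616 at week-3 (FPKM 14.2). The log2 ratio of −0.33 (interval −0.47 to −0.19) did not contain 0. The neighbouring Slc3a2, the heavy chain of amino acid transporters, is annotated 106 bases away. It had 2977 and 1533 reads and a log2 ratio of −0.25 (interval −0.34 to −0.16). On the other side Wdr74, a ribosome biogenesis factor, had 653 and 737 reads and a log2 ratio of 0.88. Snhg1 and Slc3a2 thus had overlapping intervals, and Wdr74 lay well above both.

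Snhg8 (ENSMUSG00000104960, chr3:123507552-123508404, minus strand, 3 transcripts) had 550 reads at week-0 (FPKM 49.4) against 272 at week-3 (FPKM 39.9). Its log2 ratio was −0.31 (interval −0.52 to −0.09), the only other host interval below 0. Snhg12 (ENSMUSG00000086290, chr4:132308678-132311024, plus strand) had a like value with far fewer reads, 95 and 46, and an FPKM of 4.54 and 3.60. Its log2 ratio of −0.34 (interval −0.88 to 0.19) contains 0, so a difference was not detectable at this depth. Trnau1ap, a factor of selenocysteine tRNA annotated 739 bases from Snhg12, had 385 and 331 reads and a log2 ratio of 0.49 (interval 0.28 to 0.71), above that of Snhg12 with no overlap of the intervals.

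Snhg5 (ENSMUSG00000097195, chr9:88521050-88522929, minus strand), the host of both Snord50 copies, had 275 reads at week-0 (FPKM 8.45) against 170 at week-3 (FPKM 8.54). The log2 ratio was 0.02 (interval −0.27 to 0.30). Snhg6 (ENSMUSG00000098234, chr1:9941959-9944118, minus strand) had 174 reads at week-0 (FPKM 12.5) against 129 at week-3 (FPKM 15.2). Its log2 ratio of 0.28 (interval −0.06 to 0.61) was the highest of the hosts. Both intervals contain 0. Snhg6 shares 11.1% of its exonic bases with exons of other genes in the tables, and Mcmdc2, which overlaps it on the opposite strand, had 59 and 36 reads.

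The hosts did not all have the same ratio within counting error. Of the 15 pairs among the 6 hosts, 10 had a difference of log2 ratios whose interval contained 0 and 5 did not. The latter were Gas5 above Snhg1 by 0.40 (interval 0.24 to 0.57), Gas5 above Snhg8 by 0.38 (0.15 to 0.61), Snhg1 below Snhg5 and below Snhg6, and Snhg6 above Snhg8. Snhg1 and Snhg8 differed by 0.02 (interval of Snhg1 minus Snhg8 −0.28 to 0.23). No pair differed by 2 times, and these intervals are not adjusted for the number of pairs.

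Snhg3 (ENSMUSG00000085241, chr4:132348014-132353686, minus strand, 5 transcripts) was listed at 0 reads in both libraries. Of its exonic bases, 83.3% are shared with exons of other genes in the tables, Rcc1 on the same strand and Gm17300 on the opposite strand. The shared bases number 135 for Rcc1 and 705 for Gm17300. Rcc1, a chromatin-bound exchange factor of the GTPase Ran, had 346 reads at week-0 against 458 at week-3 (log2 ratio 1.11), and Gm17300 had 33 and 23. Among 542 genes in the tables with at least 80% of exonic bases shared, 86.9% had no reads, against 47.2% of 26258 genes with no shared base. These groups of genes were not matched for type or level. How the authors' counting assigned reads in shared exons is not given in the sources used here. The 0 therefore cannot be read as a missing RNA. Whether the values of Rcc1 or Gm17300 hold reads of Snhg3 was not tested.

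Other host genes gave a wider range. Of 9 other genes of this type in the tables, 5 had enough reads, 0 were called higher and 1 lower. This was Snhg17, with 480 reads at week-0 against 139 at week-3 (log2 ratio −1.08, interval −1.36 to −0.80). Snhg20, which had 100 and 107 reads (0.81), and Snhg4, which had 171 and 159 reads (0.60), were higher at week-3 within the limits. Among 75 further genes with a snoRNA annotated inside them on their own strand, 4 were called higher and 3 lower, with a median log2 ratio of 0.17. Over all genes with enough reads, 10.6% were called higher and 15.6% lower. The plot by list shows 76, since it counts Snhg14 in both lists.

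Rps12, a ribosomal protein gene that hosts snoRNAs, was among those called higher (976 and 1293 reads, log2 ratio 1.12), as was Rcc1. 1810032O08Rik (285 and 69 reads, −1.34) and Srcap, a chromatin remodeller (111 and 29 reads, −1.23), were among those called lower. The 80 genes named Rpl or Rps with a number, nearly all of them cytosolic ribosomal protein genes (Rps19bp1 encodes a binding partner), had a median log2 ratio of 0.002, with 1 called higher and 0 lower. Of all genes with enough reads, 73.8% were within the limits.

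The proteins that assemble snoRNAs into particles and the decay factors that act on host exons were followed as lists. Of 19 proteins of box C/D and H/ACA snoRNPs and their assembly factors, 0 were called in either direction and the median log2 ratio was 0.43. Nop56, a core box C/D protein, had 2203 and 1915 reads (log2 ratio 0.51, interval 0.42 to 0.60), and Nhp2l1, which binds the same class of snoRNA, had 1787 and 1183 reads (0.11, interval 0.01 to 0.22). Fbl, the methyltransferase fibrillarin, had 1626 and 964 reads (−0.04), and Nhp2 and Dkc1 of the H/ACA particle had log2 ratios of 0.91 and 0.77. Of 19 factors of nonsense-mediated decay, 0 were called in either direction and the median was 0.06. Their best-read members, Eif4a3 (2429 and 1484 reads, −0.001) and Rbm8a (1333 and 1036 reads, 0.35), are parts of the exon junction complex.

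**Figure D3:**
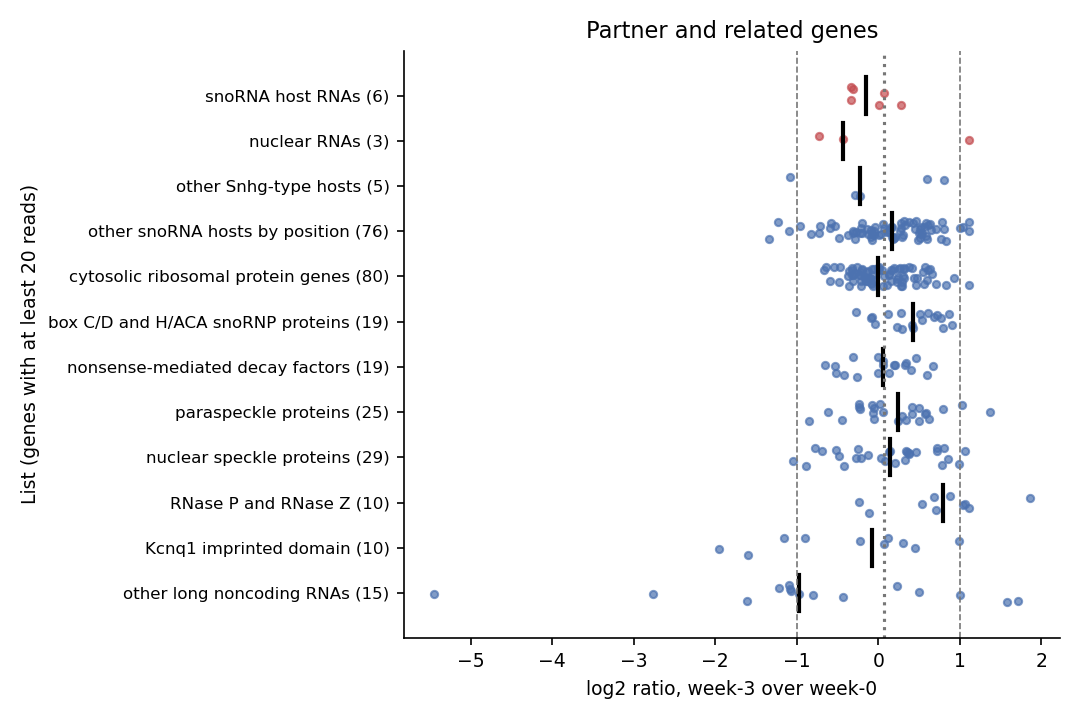
The log2 ratio of FPKM at week-3 over week-0 (x axis) of each gene with at least 20 reads, by list (the number of genes in brackets); points are genes, black bars list medians, dashed lines the 2-fold limits and the dotted line the median of all genes. The 6 hosts stay between the limits, as do 73.8% of all genes with at least 20 reads. The hosts have a median of −0.15, and the 10 RNase P and RNase Z genes have a median of 0.79.

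Other named long noncoding RNAs were followed as a list of 25. Of 15 with enough reads, 3 were called higher and 7 lower, and the median log2 ratio was −0.97. Over all genes with enough reads the shares were 10.6% and 15.6%, and over long noncoding biotypes 17.1% and 23.7%. Mir155hg, the precursor of miR-155, had 143 reads at week-0 against 2 at week-3 (log2 ratio −5.45, interval −8.51 to −3.57). Lincpint, a transcript linked to the p53 response, had 178 and 16 reads (−2.77), and Peg13, an imprinted RNA, 553 and 111 reads (−1.61). In the other direction Ftx, a gene of the X-inactivation centre, had 32 and 64 reads (1.71).

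The order in reads given above reflects length as well as level, so levels were compared between the RNAs per length. The length by which the FPKM were divided differed from the merged exons of most genes with several transcripts, and equalled them (within a share of 0.001) in 64 of 9877. That length was 11685 bases for Gas5, whose merged exons in GENCODE M21 cover 3760 bases of a span of 4118, and 1752 bases for Snhg8, whose 3 transcripts add up to exactly 1752 bases while its merged exons cover 853. The length in the FPKM exceeded merged exons by 3.75 times for Snhg1, 3.11 times for Gas5, 2.96 times for Snhg5 and 1.34 times for Malat1. For Kcnq1ot1 it was 84395 bases, the span in the deposited tables. Merged exons were counted within the deposited span of each gene, and the longer GENCODE M21 exon of Kcnq1ot1 has 93092 bases. Ratios between the libraries do not depend on it, but FPKM understate the levels of the hosts relative to the nuclear RNAs.

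Merged exons cover the whole span of Snhg1 (2969 bases), Snhg8 (853) and Snhg12 (2347), including introns that some transcripts splice out. The longest annotated transcripts of these hosts have 2728, 776 and 1538 bases, so this scale can understate host levels too. The order below therefore holds for these lengths only. In reads per kilobase of merged exon per 1000000 reads, Malat1 had the highest level in both libraries, 191 at week-0 and 142 at week-3. Gas5 followed with 110 and 116, and Snhg8 with 101 and 82.0. Neat1, second by FPKM at week-0, was the fourth on this scale with 69.4, and Snhg1 followed with 67.1. Exact Poisson intervals of Gas5 and Snhg8 overlapped at week-0, as did those of Neat1 and Snhg1, so the order within these pairs is not settled there. At week-3, Snhg1 (53.4) was above Neat1 (41.8) beyond counting error on the lengths used, 2969 bases for Snhg1 and 20771 for Neat1. Neat1 has 4 annotated transcripts, and which of them gave the reads was not measured. The intervals do not cover the choice of length, so the order of Snhg1 and Neat1 is not settled by them.

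Snhg5 and Snhg6 had 25.01 and 23.9 at week-0 and 25.3 and 29.0 at week-3, with overlapping intervals in both libraries. Snhg12 had 6.37 and 5.04. Kcnq1ot1 came last with 1.32 and 2.85 over its deposited span of 84395 bases, or 1.19 and 2.59 over the GENCODE M21 exon of 93092 bases.

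**Figure D4:**
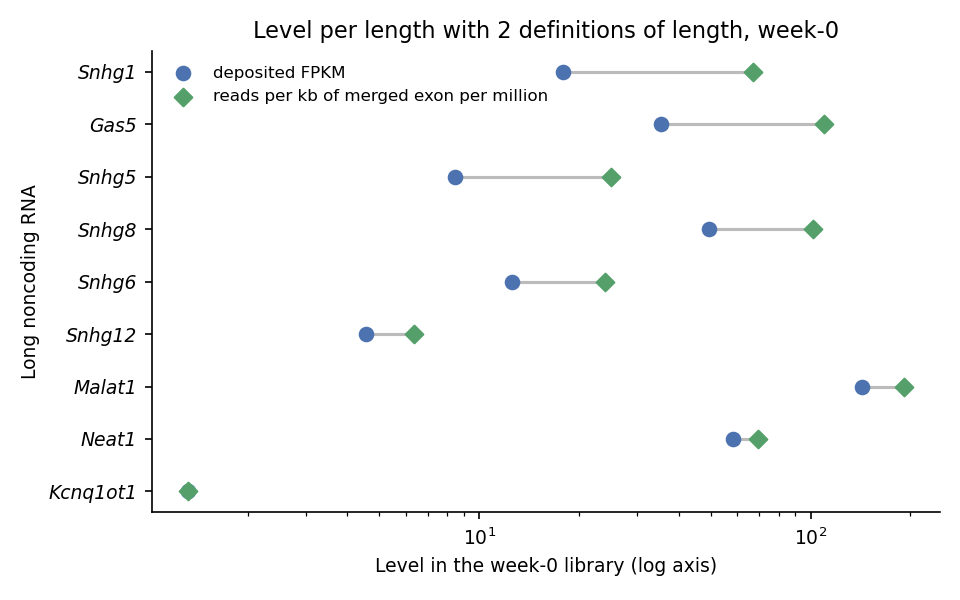
Level of each RNA in the week-0 library (x axis, log scale) as deposited FPKM (circles) and as reads per kilobase of merged GENCODE M21 exon within the deposited span per 1000000 reads (diamonds). The host Snhg1 moves from 17.9 to 67.1 and Gas5 from 35.4 to 110, while the points of Kcnq1ot1 coincide at 1.32, since both use its deposited span.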

How the data were processed

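RNA of sorted BM LSKs was analysed as 2 libraries, week-0 and week-3. Per the study's methods and submitters' notes, the authors made cDNA by SMARTer Ultra Low Input chemistry, trimmed the paired-end reads and mapped them to GRCm38 (mm10) with TopHat2 2.0.9. The authors deposited counts, whole numbers of reads per gene without normalization, and FPKM, scaled by exon model length and by the reads counted on genes. The counting tool, strand setting and annotation release are not given in the sources used here.

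Tables were joined by Ensembl identifier. Strand, transcripts, exons and snoRNA sequences came from GENCODE M21 (GRCm38) and start windows from RefSeq (GRCm38.p6). No dispersion can be estimated from 1 library per time point, so ratios carry exact Clopper-Pearson 95% intervals, and levels exact Poisson intervals, and no p-value is given. Alternatives used TMM scaling and exact tests of edgeR 4.0.16 in R 4.3.3 with a biological coefficient of variation set by hand, and size factors of DESeq2 1.42.0. Such tests set 1 library against another and say nothing of the conditions. Scripts ran in Python 3.11.15 (pandas 2.3.3, numpy 2.4.6, matplotlib 3.10.9, scipy 1.17.1), and calls and intervals were tried on simulated counts. The simulated counts held counting error only, without spread between mice or from amplification, so they say nothing of those sources of error. The depth was 6356164 and 3886695 reads.

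The RNAs, lists and alternatives were chosen with earlier results of these data known. Named genes are all 10 RNAs, their overlapping and nearest genes with at least 20 reads, and from each list up to 4 genes past 2-fold, or the 2 with the most reads where none is. Kit, Ly6a, Cd81, Osbpl5, Dhcr7, Nap1l4, Rps19bp1, Snhg14, Fbl, Nhp2, Dkc1, Snhg4, Snhg20 and the genes listed at 0 fall outside this rule and were named after their values were seen. Results for some further genes under the rule are not reported here.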

Additional observations from a re-analysis of the deposited data

How the results depend on the processing

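Relative to total reads, TMM scaling moved every log2 ratio by −0.11 and median-of-ratios scaling by −0.09, which gave −0.54 and −0.52 for Malat1, −0.84 and −0.82 for Neat1 and −0.039 and −0.016 for Gas5, and −0.17 and −0.15 for the summed reads of the snoRNA hosts. On the log2(FPKM + 1) scale Kcnq1ot1 was at 0.73, so 0 of the 10 RNAs were called higher, and 612 genes were called higher and 989 lower. Requiring at least 1 read in each library gave 2191 genes higher. Requiring at least 100 reads gave 663 higher and 1004 lower. Limits of 1.5 times gave 2894 higher and 2996 lower, with 1 of the RNAs, Neat1, lower. With a biological coefficient of variation of 0.4, edgeR left 29 genes higher and 87 lower and 0 of the RNAs. Of 145 values that an alternative could move, 124 stayed close to the value given. Close meant within counting error for the RNAs and the summed hosts, and within 1.5 times for counts of genes. For list medians it meant within the typical reach of a single gene's interval to either side, which is a wide limit. Relative to all genes, the median of other long noncoding RNAs went from −1.04 to −0.52 on the log2(FPKM + 1) scale. That of other Snhg-type hosts went from −0.29 to 0.09 with at least 100 reads. Both were counted as close. Under a scaling, list medians relative to all genes cannot move, and those values are left out of this tally. No paired analysis was possible because each time point has 1 library. The depth limits Snhg12, Snhg6 and Snhg5 most, and the spread between mice was not measured.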
